A study of Strongylocentrotus purpuratus with 10 samples.

Results

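The regions described here are the nuclear peaks that were called in antibody library 1 alone, in chromatin of purple sea urchin embryos (Strongylocentrotus purpuratus) immunoprecipitated for the transcription factor Brachyury. They were chosen from the deposited peak list of library 1 as the intervals on nuclear scaffolds that shared not even 1 bp with a peak of library 2 or with the authors' combined set. The rule left 1156 of the 1484 peaks of library 1, which is 82.2% of its 1406 nuclear peaks, and 8943 peaks stand in both lists together. Of the other nuclear peaks, 249 overlapped a library 2 peak and 1 overlapped the combined set alone, and 78 peaks of library 1 lay on the mitochondrial genome. The values of antibody and input signal below are those on which the peaks were called, so they describe the members and test nothing.

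Brachyury is a T-box transcription factor, a protein that binds DNA through its T domain and acts in the gut, mouth and mesoderm of many animals. In the sea urchin it is known from the vegetal plate and the oral field of the embryo. In a ChIP-seq experiment, DNA bound by an antibody's target is compared with input chromatin, and a region with more reads than its input is called a peak.

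All samples were whole embryos at the blastula stage, 24 h after fertilisation. The RNA comparison set 3 libraries of embryos injected as zygotes with 2 to 4 pl of a translation-blocking brachyury morpholino at 200 µM against 3 libraries labelled as wild type controls, and the labels do not say whether the controls were injected. For ChIP-seq, 2 antibody libraries (AB1 and AB2) each had an input library of their own. The embryos for it were raised at 15 °C and fixed in 1% formaldehyde for 12 min. The labels do not say whether AB1 and AB2 are different antibodies or different samples, so a peak found in library 1 alone cannot be told apart as a difference of antibody, sample or depth. With 1 library on each side there is no replicate, and the files hold no read totals, so the depth of the libraries is unknown. Whole embryos mix all cell types, and fewer bound cells and weaker binding per cell cannot be told apart. The deposited differential table holds no value per library, so neither the knockdown nor the stage could be checked against markers in each sample. The brachyury gene itself (LOC576774) had a log2 fold change of 1.18 by the authors' deposited table (adjusted p 8.71e-05), and a translation-blocking morpholino need not lower the mRNA it binds.

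The library 1-only peaks were weak, and most lay just above the lowest score that the list admits. Antibody signal, the authors' read signal over a peak in units whose scaling is not given, had a median of 0.79 with a range of 0.57 to 11.1, and input signal had a median of 0.21 with a range of 0.05 to 5.49. The fold over input had a median of 3.63, with quartiles of 2.84 and 4.64. The 250 nuclear library 1 peaks that overlapped another set had a median antibody signal of 0.915, a median input signal of 0.29 and a median fold of 3.36. By these medians the unshared peaks had less antibody signal and also less input, so that their fold was not below that of the shared ones.

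The peak score equalled antibody minus input signal, multiplied by a distribution score between 0 and 1, to within 0.012 for every member. The distribution score was 1 for 1046 members, 90.5% of them. No member scored under 0.5, and 513 members (44.4%) scored from 0.5 to below 0.55. Only 27 of the members scored 1 or more, 20 of them below 2 and 7 of them at 2 or above. The median score was 0.55 for the members and 0.6 for the overlapping library 1 peaks. Membership in the list therefore required an excess of about 0.5 signal units over input, whatever the fold.

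**Figure D1:**
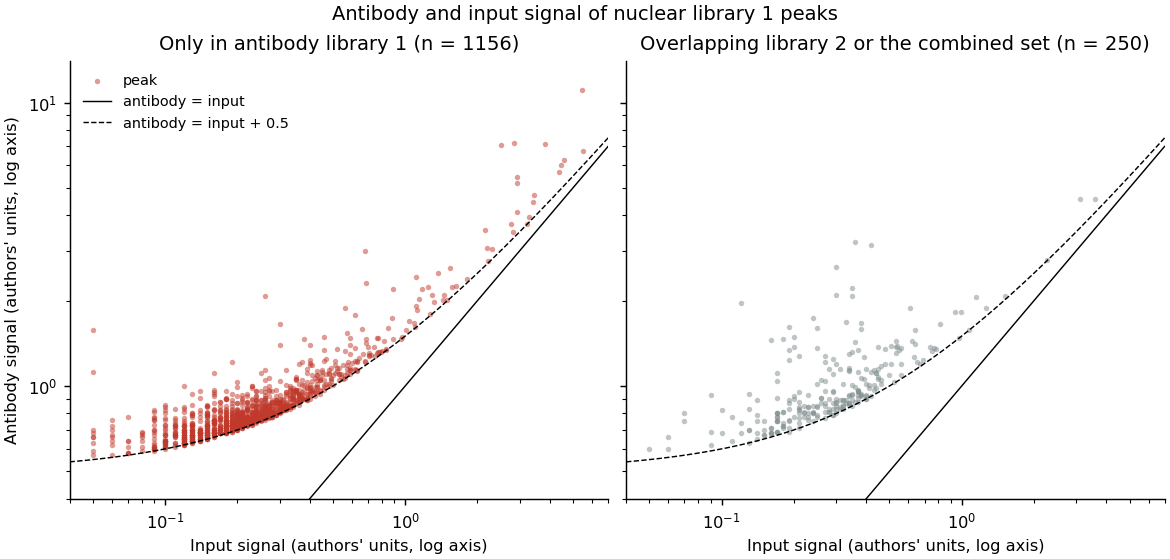
Antibody signal (y axis) against input signal (x axis), both in the authors' units on log axes, for the 1156 library 1-only peaks (left) and the 250 nuclear library 1 peaks that overlap library 2 or the combined set (right), with 1 point for each peak. The solid line marks equal signals and the dashed line an excess of 0.5, along which most points of both panels lie.

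The authors' false discovery rate, deposited in percent, was high for nearly all members. It had a median of 33.72% and a range of 12.2% to 60%. No member was under 10%, 21 were under 20%, and 868 (75.1%) were over 30%. The overlapping library 1 peaks had a median rate of 30.05% and a range of 13.73% to 37.49%. The rate did not fall steadily with the score. Members scoring from 1 to below 2 had a median rate of 18.58%, against 36.37% for those from 0.5 to below 0.55, while the 7 members at 2 or above ran from 12.2% to 60%.

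The members with the most antibody signal and those with the highest fold differed in input signal. All 20 members with the most antibody signal had an input signal of at least 1, and all 20 with the highest fold had an input signal of 0.1 or less. Across the 1156 members antibody and input signal had a rank correlation of 0.844, and antibody signal and fold had one of -0.71. These counts and correlations describe peaks of 1 library pair in which the score fixes a minimum excess, and they carry no test.

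The highest antibody signal stood at NW_022145606.1:50153087-50153222, with 11.11 in antibody library 1 and 5.45 in its input, a fold of 2.04. It lay 869 bp outside the span of LOC592601. The next was NW_022145615.1:655875-656010, with 7.17 in the antibody library and 2.83 in the input, 3766 bp from LOC576033. That gene is Arnt, the nuclear partner of bHLH-PAS factors such as the hypoxia factors and the dioxin receptor, and it stood at a log2 fold change of 0.58 by the authors' deposited table (adjusted p 0.0448). The region NW_022145604.1:28009053-28009188 followed with 7.16 in the antibody library and 3.82 in the input. Each of these 3 regions had a score above 3, and their false discovery rates were 50%, 50% and 30.77%.

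The highest fold stood at NW_022145609.1:12175668-12175803, inside LOC105438671, with 1.57 in the antibody library and 0.05 in the input, a fold of 33.54. The region NW_022145610.1:2472726-2472861 had 1.12 in the antibody library and 0.05 in the input, a fold of 23.8, and lay 31252 bp from the nearest protein-coding span. An input of 0.05 is the lowest value among the members, so folds of this size rest on almost no input signal. The third highest fold, 14.78, belonged to a peak in LOC582631, a large gene named Macf1-2 and described as nesprin-1 in the authors' deposited table. It had 0.7 in the antibody library and 0.05 in the input. The remaining 7 of the 10 highest folds ran from 12.14 to 14.14, and 1 of them lay in ECaSt/PDI, an endoplasmic reticulum calcium-storage protein, with 0.66 in the antibody library and 0.05 in the input.

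High input went with other values too. The 42 members with an input signal of at least 1 had a median antibody signal of 2.68 and a median fold of 1.46. The 709 members with an input below 0.25 had a median antibody signal of 0.73 and a median fold of 4.27. Of the first set 41 could be placed against genes and 41.5% of these lay in a protein-coding span (95% Wilson interval 27.8% to 56.6%). Of the second set 706 could be placed and 69.7% lay in one (66.2% to 73%). Both intervals cover counting error only.

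Few members lay directly beside a library 2 peak, but 40.5% lay within 10000 bp of one. Library 2 had 8.97 peaks per Mb on the 21 large scaffolds. No gap expected at that density was computed, so the gaps do not say whether members lie near or far from library 2 peaks. Library 2 listed 7459 peaks, each 284 bp wide, and library 1 peaks are each 136 bp wide. The gap from a member to the nearest library 2 peak had a median of 15219 bp, with quartiles of 3438 and 45303 bp, for the 1153 members on scaffolds with such a peak. Within 100 bp lay 27 members (2.34%), within 1000 bp 153 (13.2%) and within 10000 bp 468 (40.5%). A further 121 (10.5%) were over 100000 bp away. The nearest interval of the 490 in the combined set was a median of 496223 bp away, and 7 members lay within 100 bp of one.

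At the edge of the rule, the 5 members nearest to a library 2 peak had gaps of 0, 2, 4, 6 and 10 bp, and the 5 peaks left out with the smallest overlap shared 4, 6, 9, 11 and 12 bp. The member that touched a library 2 peak, at NW_022145594.1:51590966-51591101, had 1.14 in the antibody library and 0.45 in the input. The peak left out for 4 bp, at NW_022145611.1:13374872-13375007, had 0.93 in the antibody library and 0.37 in the input. The peak left out by the combined set alone, at NW_022145613.1:10120091-10120226, had 0.93 in the antibody library and 0.34 in the input and lay 38 bp from a library 2 peak. Over the 5 members antibody signal ran from 0.74 to 2.38, and over the 5 peaks left out by overlap it ran from 0.6 to 0.96. The highest of these values belonged to the member 10 bp from a library 2 peak, at NW_022145603.1:2922209-2922344, whose input was 1.81.

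**Figure D2:**
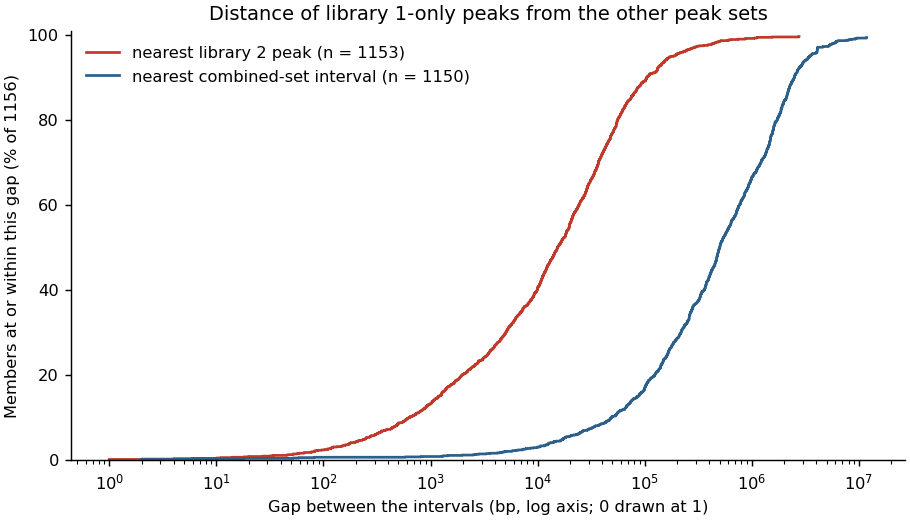
Cumulative share of the 1156 library 1-only peaks (y axis, in percent) at or within a given gap in bp (x axis, log scale) of the nearest library 2 peak (red, n = 1153) or the nearest combined-set interval (blue, n = 1150). The red line passes 40.5% at 10000 bp, where the blue line is at 3.03%.

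The library 2 peaks beside members had a lower median fold and a higher median antibody signal than all library 2 peaks. Those nearest to the 27 members within 100 bp had a median fold of 1.95, and those nearest to the 153 members within 1000 bp had 2.09, while all library 2 peaks had 2.36. The library 2 peaks that overlapped library 1 had a median fold of 2.7. Median antibody signal was 1.84 for the library 2 peaks beside the 27 members and 1.38 for all library 2 peaks, and the median scores were 0.89 and 0.72. Signals of the 2 libraries are not compared with each other, since their scaling is not known.

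Most members stood alone along the scaffolds. When members within 10000 bp of the next were joined, 989 stood alone, 55 pairs and 8 triples formed, and 5 chains held 4 or more. The 167 members in chains made up 14.4% of all. On the 21 large scaffolds members stood at 1.39 per Mb. No share expected at that density was computed, so these counts do not say whether members cluster. Members of a chain share a library and often a stretch of DNA, so they are not independent sites.

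The largest chain held 12 members over 28469 bp, at NW_022145594.1:51590966-51619434. It began in the long non-coding RNA gene LOC105439754 and ended in the protein-coding gene LOC105439755. Antibody signal ran from 0.81 to 1.67 and input from 0.3 to 1.09, and the folds ran from 1.53 to 3.04. All 12 were modest in excess, with scores of 0.51 to 0.81, and 4 library 2 peaks lay in the same stretch without overlapping them.

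The second chain lay beside ribosomal RNA genes. Its 7 members covered 11262 bp at NW_022145595.1:29971838-29983099, near 2 annotated rRNA genes, LOC115922030 of 1817 bp and LOC115922013 of 156 bp. No member had its midpoint in either gene. The midpoint of 1 member was 67 bp from LOC115922013, and those of the others were 3224 to 8944 bp from LOC115922030. Antibody signal ran from 2.2 to 7.08 and input from 0.68 to 5.49, and the folds ran from 1.23 to 4.39. The member with the lowest false discovery rate of all, 12.2%, was here, with 5.44 in the antibody library and 2.92 in the input. The member with the highest rate of all, 60%, was here as well, with 7.08 in the antibody library and 2.51 in the input. Another library 1 peak in the same stretch overlapped library 2 and is not a member. Repeated genes such as these collect reads that map to several copies, and the sources used here do not give how such reads were treated.

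The third chain had 6 members over 27895 bp in and beside LOC580672, at NW_022145609.1:29530750-29558644. Antibody signal ran from 0.91 to 2.09 and input from 0.39 to 1.49, and the stretch also held 15 library 2 peaks, with 3 library 1 peaks that overlapped. A chain of 4, with 3 members in LOC105437447 and 1 at 275 bp from it, had antibody signals of 0.82 to 1.54 over inputs of 0.32 to 0.57 and no library 2 peak. The other chain of 4 lay in the long non-coding RNA gene LOC105436494, with antibody signals of 0.89 to 3.05 over inputs of 0.34 to 2.31.

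**Figure D3:**
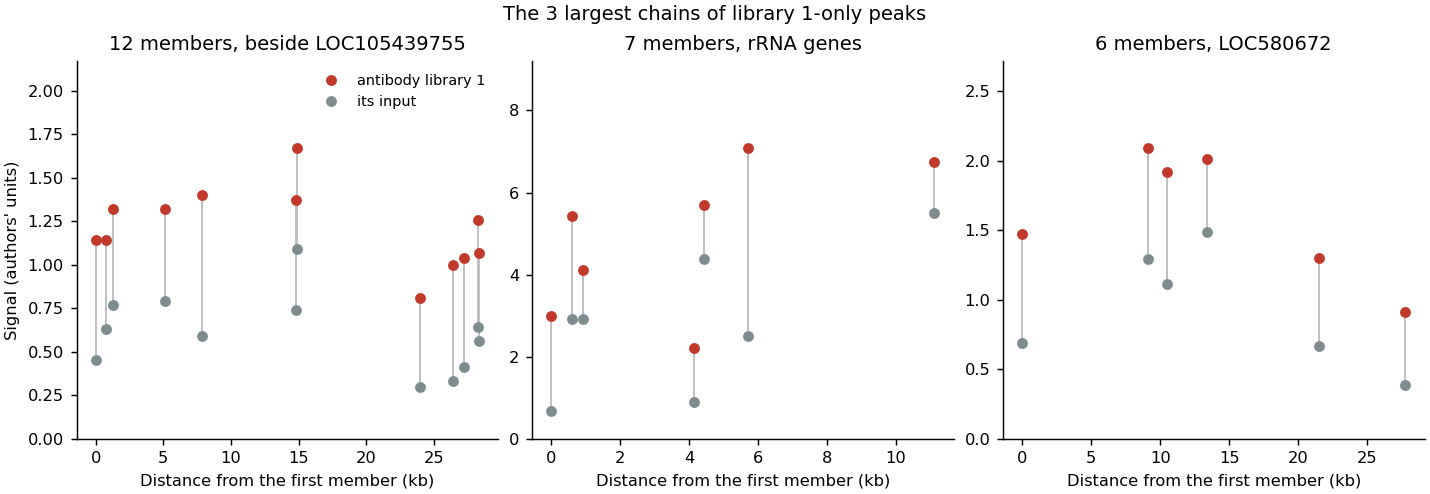
Antibody signal (red) and input signal (grey) in the authors' units (y axis) at each member of the 3 largest chains, by distance in kb from the chain's first member (x axis), with a grey line joining the 2 values of a member. Antibody signal stands above input at every member, and both are highest in the chain beside the rRNA genes.

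The density of members differed between the 21 large scaffolds. It ran from 0.496 members per Mb on NW_022145606.1 to 2.36 on NW_022145615.1, with Mb counted to the end of the last annotated gene. The 5 densest scaffolds, NW_022145611.1 to NW_022145615.1, held 41% of the members placed on these 21 on 26.1% of their length. Library 2 peaks were also dense there, with 45.8% of the library 2 peaks of the 21 scaffolds. Members per Mb and library 2 peaks per Mb had a rank correlation of 0.847 over the 21 scaffolds, and members per Mb and protein-coding genes per Mb had one of 0.649. These are descriptions without a test, since the scaffolds share their libraries and differ in gene content and assembly.

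Between scaffolds the number of members for every 100 library 2 peaks ran from 7.69 on NW_022145600.1 to 23.7 on NW_022145609.1. NW_022145600.1 stood apart with 0.966 members and 12.6 library 2 peaks per Mb. It also holds FGFR, a receptor of fibroblast growth factors, which had 17 library 2 peaks and 15 combined-set intervals at it and whose nearest member lay 854485 bp away.

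**Figure D4:**
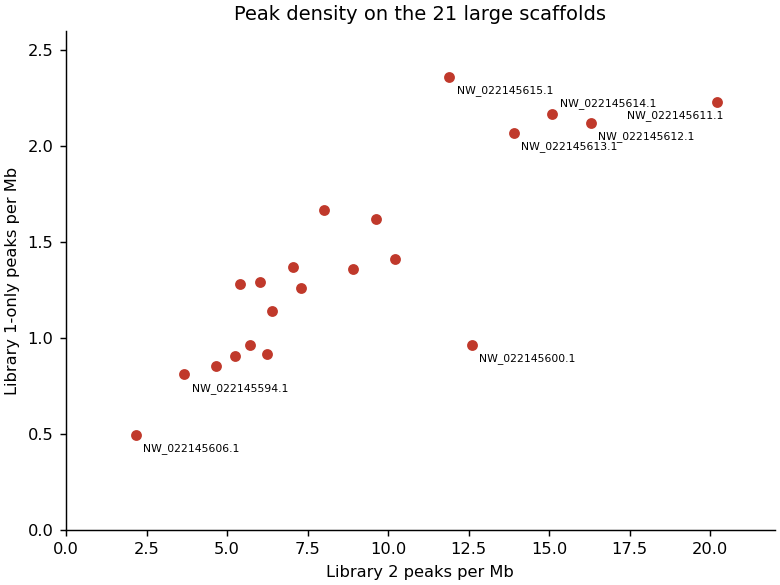
Library 1-only peaks per Mb (y axis) against library 2 peaks per Mb (x axis), with 1 point for each of the 21 large scaffolds and the scaffold name beside 8 of them. NW_022145611.1 to NW_022145615.1 lie above 2 members per Mb, and NW_022145600.1 lies low for its 12.6 library 2 peaks per Mb.

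The next values rest on gene positions whose scaffold was inferred, as described with the processing. Of the 1149 members on the 21 scaffolds, 757 (65.9%, 95% Wilson interval 63.1% to 68.6%) had their midpoint in the span of a protein-coding gene. Such spans cover 47.1% of the length of these scaffolds. The share was 62.8% for overlapping library 1 peaks (56.7% to 68.6%) and 68.5% for library 2 peaks that do not overlap library 1 (67.4% to 69.5%). It was 50.7% for the combined set (46.3% to 55.1%), an interval that does not reach that of the members. Within 1 kb of an end of a span lay 13.7% of members (11.8% to 15.8%), 13.6% of overlapping library 1 peaks (9.9% to 18.4%) and 13.3% of combined-set intervals (10.6% to 16.6%). Strand was not used, so an end may be a start or a stop of the gene. Of the members whose midpoint lay in any annotated gene, 22 lay in long non-coding RNA genes and 1 in a pseudogene.

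Given to the nearest protein-coding span within 10 kb, 946 members fell on 839 genes, 3.39% of the 24773 genes placed. Most of these genes, 756, had 1 member, 70 had 2, 7 had 3, 4 had 4, and 1 each had 6 and 7. Genes with members were long, with a median span of 22809 bp, while all placed genes had 10226 bp. A member was found at 7.27% of the longest genes and at 1.39% of the shortest, when genes were split by length into 4 groups of nearly equal size. Library 2 peaks stood at 409 of the 839 genes (48.7%), and combined-set intervals at 44 (5.24%). Of all genes with a library 2 peak 10.9% had a member (9.94% to 11.9%), and of genes without one 2.05% (1.86% to 2.25%).

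The genes with the most members are mostly without a name in the files. LOC105439755 had 7, and LOC580672 had 6, both in the chains above. LOC100890697, LOC105437447, LOC587668 and LOC752858 had 4 each. LOC587668 is a span of 174881 bp, and its 4 members had antibody signals of 0.69 to 0.89 over inputs of 0.14 to 0.3. Of the 7 genes with 3 members, LOC582631 (Macf1-2, described as nesprin-1, a protein that ties the nuclear envelope to the cytoskeleton) was the one in the authors' deposited table, at -1.39 (adjusted p 8.87e-08). Its 3 members had 0.7, 0.88 and 0.84 in the antibody library and 0.05, 0.33 and 0.3 in the input. The neighbouring gene LOC756550 (Macf1, a spectraplakin that links microtubules and actin) had 1 member, with 0.86 in the antibody library and 0.34 in the input, and stood at -0.45 in the authors' deposited table (adjusted p 0.0203).

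The differential table was not used by the rule, so it describes the genes of the members independently. It lists only genes with an adjusted p under 0.05 between morphants and controls, and it does not say which group is the numerator, so changes are given as positive or negative. Of the 839 genes with a member, 137 (16.3%, 95% Wilson interval 14% to 19%) were in the authors' deposited table, where 12.0% of all 24773 placed genes were. By direction, 93 (11.1%) were positive and 44 (5.24%) were negative, where 5.98% of all placed genes were positive and 6.04% negative. The positive share of member genes was thus above the background and the negative share was near it. Among genes in the table, 67.9% of those with a member were positive (59.7% to 75.1%), and 49.8% of all placed ones were (48% to 51.6%). Read from the other side, a member stood at 6.28% of the table's positive genes (5.15% to 7.63%), at 2.94% of its negative genes (2.2% to 3.93%) and at 3.22% of genes outside it (2.99% to 3.46%).

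The positive share was also read by the size of the change. Under 0.5 in absolute log2 fold change, 7 of 12 member genes of the authors' deposited table (58.3%, 32% to 80.7%) were positive, and 64.5% of all placed table genes of that size were (56.4% to 72%). Between 0.5 and 1 in absolute log2 fold change, 63 of 77 member genes of the authors' deposited table (81.8%, 71.8% to 88.8%) were positive, and 60.5% of all placed table genes of that size were (57.8% to 63%). At 1 or more, 48 member genes (5.72%) were in the table, where 6.05% of all placed genes were. Of these 48, 23 (47.9%, 34.5% to 61.7%) were positive, and 38.8% of all placed table genes of that size were (36.4% to 41.3%). At an adjusted p under 0.01, 91 member genes (10.8%) were in the table, where 7.46% of all placed genes were, and 61 of the 91 were positive.

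Library 2 peaks gave a similar picture for the positive share, and gene length moved with that share. The positive share of genes with a combined-set interval lay near that of all placed table genes. Genes with a library 2 peak and no member were in the authors' deposited table in 18.5% of cases (17.2% to 19.8%), and 62.3% of those were positive (58.4% to 66%). Genes with a member and no library 2 peak were in it in 13.7% (10.8% to 17.3%), and 62.7% were positive (50% to 73.9%). That 13.7% lay near the 12.0% of all placed genes, which its interval covers. Of the 137 member genes in the table, 78 also had a library 2 peak. Genes with both were in it in 19.1% (15.6% to 23.2%), with 71.8% positive (61% to 80.6%), and genes with neither in 10.8% (10.4% to 11.2%), with 45.2% positive (43.1% to 47.2%). The intervals of the 3 classes with a peak overlap in the share that is positive. Those of the classes with a member are wide, so the overlap does not show that the shares are equal. By size of change, genes with a library 2 peak and no member were 77.3% positive under 0.5, 69.2% from 0.5 to 1 and 51.2% at 1 or more. Member genes had 58.3%, 81.8% and 47.9% at these sizes. Genes with a combined-set interval were in the authors' deposited table in 24.8% of cases (20.2% to 30.1%). Of those, 49.3% were positive (38.2% to 60.5%), beside 49.8% of all placed table genes. Genes with a library 1 peak that overlaps another set were in it in 19.6% (14.4% to 26%), with 54.3% positive (38.2% to 69.5%).

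Over all placed genes, longer ones were more often in the table and more often positive. In the group of the longest genes, 19.3% of those with a member were in the authors' deposited table (16% to 23.2%) and 18.1% of all genes were (17.2% to 19.1%). In the same group 69% of the member genes in the table were positive (58.6% to 77.7%), and 57.7% of all table genes were (54.8% to 60.5%). In the next group 18.9% of member genes (13.8% to 25.2%) and 14% of all genes (13.1% to 14.9%) were in it, and 70.6% of the member genes (53.8% to 83.2%) and 51.4% of all (48.1% to 54.8%) were positive. The 2 groups of shorter genes held 16 member genes of the table, 9 of them positive. Among the longest genes with a library 2 peak and no member, 22.4% were in the authors' deposited table (20.4% to 24.6%) and 64.5% of those were positive (59.3% to 69.4%). Among the longest genes the intervals of the positive share thus overlap between those with a member, those with a library 2 peak alone and all genes. This overlap does not show that the shares are equal, and genes with a member are also counted among all genes.

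**Figure D5:**
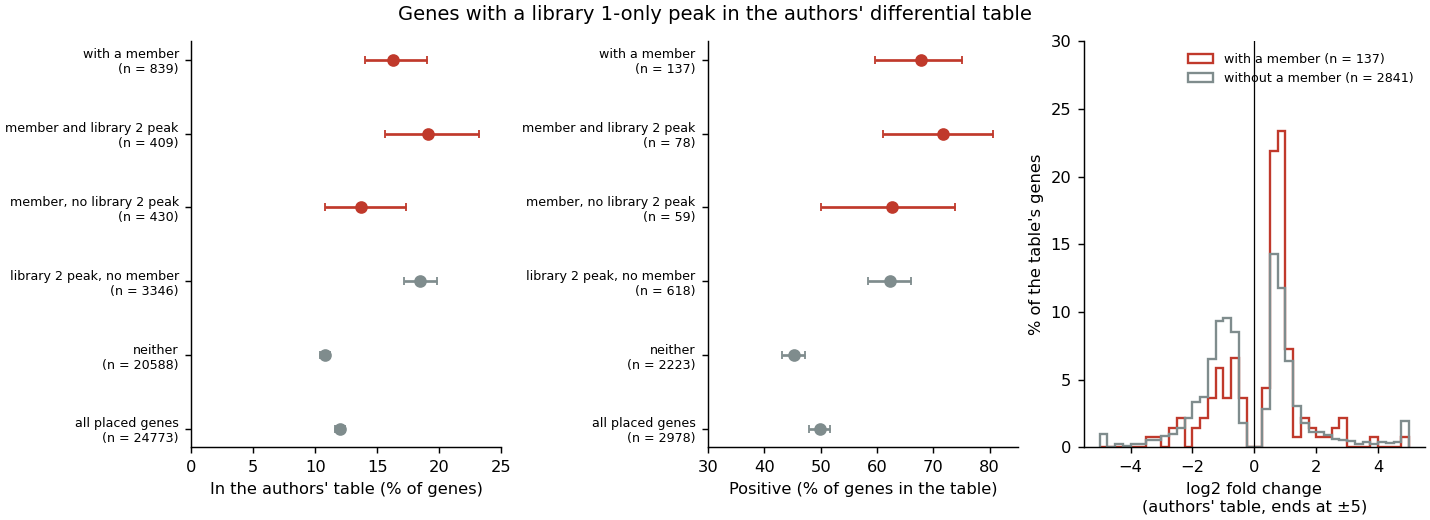
Share of genes in the authors' deposited table (left, percent of genes) and share of the table's genes that are positive (middle, percent), by whether a gene has a library 1-only peak, a library 2 peak, both or neither within 10 kb, with 95% Wilson intervals as bars. At right, the log2 fold changes of the table's genes with a member (red) and without one (grey) are drawn as a percent of each set, and the red line is highest between 0.5 and 1.

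Of the 93 positive genes with a member, the authors' deposited table puts 20 in its unclassified class and gives 36 no class. Of all 2978 placed genes of the table, 347 are in that class and 1204 have no class. The positive genes named here are the positive members of the lists and the genes with the lowest adjusted p among those with a usable name, and BMP1. The gene of the Ets factor Ese (LOC582205) had a member 31 bp outside its span, with 0.97 in the antibody library and 0.16 in the input, and a log2 fold change of 0.93 by the authors' deposited table (adjusted p 3.81e-08). Wnt4 (LOC105436842), a secreted Wnt ligand by its name in the table, had 2 members inside its span, with 0.7 and 0.76 in the antibody library and 0.14 and 0.21 in the input. It stood at 1.01 in the authors' deposited table (adjusted p 0.000536), and no library 2 peak stood at it. The dachshund factor gene Dac (LOC586986) had 2 members, 1 inside the span and 1 at 2545 bp, with 0.69 and 0.64 in the antibody library and 0.17 and 0.12 in the input. It stood at 0.80 in the authors' deposited table (adjusted p 6.86e-08). FoxN2/3 (LOC590815), a forkhead factor, had a member 3666 bp away and stood at 0.78 in the authors' deposited table (adjusted p 0.00361).

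Lama1 (LOC579603), a laminin subunit of the basement membrane, had a member with 0.76 in the antibody library and 0.16 in the input and stood at 1.06 in the authors' deposited table (adjusted p 4e-10). BMP1, a tolloid-type protease that cleaves matrix proteins and chordin, had 1 of the high-input members, with 3.55 in the antibody library and 2.15 in the input, and stood at 0.80 in the authors' deposited table (adjusted p 8.15e-05). The matrix metalloprotease gene Mmp1/3L1 (LOC579968) stood at 1.61 and the protocadherin gene FatL1 (LOC580257) at 0.73 in the authors' deposited table, each with 1 member. The lowest adjusted p among the named positive genes was that of Fyve1 (LOC581719), 1.2e-10 at a log2 fold change of 2.11 by the authors' deposited table. Its member had 0.91 in the antibody library and 0.26 in the input. Others of the 10 with the lowest adjusted p among genes with a usable name were Tep1 (LOC584519) at 1.58, Fam13A1 (LOC587138) at 0.98, Aggf1 (LOC578529) at 0.93, Slc4a3 (LOC587119) at 0.92, the acetylcholine receptor subunit Nacha6 (LOC577316) at 0.86 and a gene described as SCO-spondin (LOC757285) at 0.77, all in the authors' deposited table.

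Of the 44 genes with both a member and a combined-set interval, 13 (29.5%, 18.2% to 44.2%) were in the authors' deposited table. Of these 13, 7 were positive and 6 negative. Of all 294 genes with a combined-set interval 24.8% were in it (20.2% to 30.1%), and of all placed genes 12.0%. The 44 genes were long, with a median span of 46568 bp. Among the 7 positive genes, Lama1 had 3 library 2 peaks and 1 combined-set interval, and FatL1 had 7 and 1. Isl (LOC576365), a LIM-homeobox factor known from neural development, had 1 member at NW_022145615.1:32342695-32342830, with 0.81 in the antibody library and 0.3 in the input. It stood at -3.15 in the authors' deposited table (adjusted p 9.89e-09), and 8 library 2 peaks and 1 combined-set interval were at it. Hedgehog (hh), the secreted ligand made by endoderm, had 1 member at NW_022145612.1:3343335-3343470, with 0.89 in the antibody library and 0.26 in the input. It stood at -2.31 in the authors' deposited table (adjusted p 0.00975), and 4 library 2 peaks and 1 combined-set interval were at it. FGF, named Fgf9/16/20 in the table, is a ligand known to guide skeletogenic cells in the urchin Paracentrotus lividus. It had 1 member at NW_022145596.1:8532553-8532688, with 0.64 in the antibody library and 0.1 in the input. It stood at -1.82 in the authors' deposited table (adjusted p 3.19e-07), and 4 library 2 peaks and 3 combined-set intervals were at it.

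Genes of the skeletogenic list with members were found on both sides of the table, but those of the table's biomineralisation class were all negative. SM50, a protein of the spicule matrix, had 1 member at NW_022145602.1:7416132-7416267, with 0.79 in the antibody library and 0.16 in the input, and stood at -1.39 in the authors' deposited table (adjusted p 2.29e-10). The biomineralisation gene SpP19L had 1 member, with 0.75 in the antibody library and 0.24 in the input, and stood at -1.15 in the authors' deposited table (adjusted p 7.79e-08). Neither has a combined-set interval, and SpP19L has no library 2 peak. The skeletogenic list matched 30 placed genes, 28 of them in the table, of which 6 were positive and 22 negative. Members stood at 4 of the 30, and 2 of these were positive and 2 negative. The 2 positive genes are FoxN2/3 and Mmp1/3L1, described above. In the table's own biomineralisation class 3 of 26 placed genes (11.5%) had a member, where 4.6% of all placed table genes had one. All 3 were negative, and 7.69% of that class was positive.

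Other negative genes with a usable name and a low adjusted p were a hyalin-like gene (LOC578978, with 2 members) at -1.50, the adhesion receptor Ldla/Ig/Gpcr (LOC592144) at -2.27, Idh1 (LOC581147) at -1.11 and Cask (LOC105446626) at -0.97, all in the authors' deposited table. Of these 4 genes, LOC578978 had 6 library 2 peaks within 10 kb and the others had none. The arylsulfatase gene Ars_2 (LOC582391), of a family that marks the aboral ectoderm, stood at -1.23 in the authors' deposited table (adjusted p 0.000104), and its member had 0.64 in the antibody library and 0.1 in the input. The laminin beta gene LOC582206 stood at -0.36 in the authors' deposited table (adjusted p 0.0249).

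Lists of tissue and pathway genes were read for how many of their placed genes had a member, beside the 3.39% of all placed genes. Names in the files come mostly from the differential table, so these lists hold almost only genes in that table, of which 4.6% had a member. Over all lists 21 of 275 genes (7.64%) had a member. Endoderm genes had 4 of 19, Dac, hh, Wnt4 and GATAe, and matrix and cytoskeleton genes had 8 of 52. Mesoderm genes had 2 of 14, of which Ese is described above. Neural, signalling and aboral ectoderm genes had 1 each, of 6, 9 and 13. No member stood at the 41 cilia genes, which allows a share of up to 7.32%. The 7 oral ectoderm genes had none, which allows up to 42.9%. The 88 ribosomal protein, histone and other highly transcribed genes had none, which allows up to 3.41%. These 88 are protein-coding, so the rRNA genes beside the second chain are not among them. These limits cover counting error only, and each of them lies above the 3.39% of all placed genes. All of the 88 and all of the 41 genes are in the differential table, where 4.6% of genes had a member. The limit of 3.41% for the 88 lies below that 4.6%, and the limit of 7.32% for the 41 lies above it. Gene length was not taken into account here.

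GATAe, a GATA factor of the endoderm that is not in the table, had 1 member at NW_022145613.1:344324-344459, with 0.68 in the antibody library and 0.15 in the input. It also had 6 library 2 peaks and 4 combined-set intervals, the nearest of them 8505 bp from the member. The collagen genes COLP1alpha, COLP3alpha and COLP4alpha each had 1 member, with 0.82, 0.77 and 0.85 in the antibody library and 0.2, 0.23 and 0.24 in the input, and none is in the table. SPARC, a matrix protein that binds collagen, had a high-input member 3431 bp away, with 2.1 in the antibody library and 1.45 in the input. The brachyury gene had no member within 10 kb. Its nearest one lay 81039 bp away, with 0.95 in the antibody library and 0.16 in the input, while 9 library 2 peaks and 8 combined-set intervals stood at the gene.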

How the data were processed

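Peaks were compared between 2 antibody libraries with 1 input library each, and genes through the authors' table of 3 morphant and 3 control RNA libraries. Without roles, BWA 0.7.17, DESeq2 1.28.1, Salmon 0.11.3 and Trimmomatic 0.38 are listed in the submitters' processing notes. The peak caller and the scaling of signal are not given in the sources used here. Antibody and input signal, their fold (a ratio), the peak score and the false discovery rate in percent were taken per peak as the authors deposited them. The distribution score is a fraction from 0 to 1, per the file headers. The log2 fold changes, p-values and adjusted p-values of genes are those the authors deposited. Names and descriptions of some table genes differ.

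Coordinates are Spur_5.0, counted from 1. The RefSeq gene table gives nuclear genes no scaffold. Its 21 blocks of rising position over 20 Mb were therefore matched, in sequence, to the 21 scaffolds with more than 100 library 2 peaks, and gene scaffolds are inferred from this. In all 21 pairs every library 1 peak ends before the last gene end. Of the table's 3542 genes 2978 could be placed, and 7 members on other scaffolds could not. A peak was given to the protein-coding span nearest to its midpoint within 10 kb, and 4 midpoints lay in more than 1 span. Intervals are 95% Wilson intervals and cover counting error only, and no test was made because the members have no replicate. The regions, gene lists and comparisons were chosen with earlier results of these data known. Regions named are the 10 highest by antibody signal, fold or score, the 5 lowest by false discovery rate, the 5 on each side of the overlap rule and those in chains of 4 or more. Genes named hold 3 or more members, have the 10 lowest adjusted p in a direction among genes with a usable name (more than a hypothetical-protein or model number), or belong to a list, and 1 gene that the rule names is not reported here. COLP genes, SPARC, ECaSt/PDI, BMP1 and Arnt were also named, some of them after their values were seen. The genome sequence was not used here. The interval code was tested on simulated data. Figures were drawn with matplotlib 3.10.9 and values computed with pandas 2.3.3, numpy 2.4.6 and scipy 1.17.1 under Python 3.11.15.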

Additional observations from a re-analysis of the deposited data

How the results depend on the processing

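Over 52 recomputed values for 6 results, 42 stayed close to the reported ones, within 1.5 times for counts and medians and within the 95% Wilson interval for shares, and 10 moved. Keeping members at or above the median score left 643 members, and a fold of at least 5 left 236 with a median fold of 5.96. Joining members within 50 kb put 352 in chains. The share of members within reach of a protein-coding gene was 65.9% by span alone, 76.9% within 5 kb and 96.6% within 50 kb. The share of member genes in the authors' deposited table was 10.8% at an adjusted p under 0.01 and 5.72% when absolute log2 fold changes under 1 were left out. The counts of members and chains and the share near a gene moved under criteria that by definition admit fewer or more. Of all placed genes, 12.0% were in the authors' deposited table, 7.46% at that adjusted p and 6.05% without those smaller changes. The share of member genes was thus above that of all placed genes at the adjusted p, but not without the smaller changes. At changes of 1 or more the positive share was 47.9%, where 38.8% of all placed table genes of that size were positive. The cause of these shifts in the table shares was not tested. The positive share ran from 63.3% to 72.2% under the other alternatives, and leaving out members with an input of at least 1 or those in chains of 4 or more, both added after seeing the data, gave 67.2% and 67.9%. No paired analysis was possible because the differential table holds no value per library. Replicates could not be left out for the same reason, and each peak list rests on 1 antibody library. Depth is unknown, so a region missing from library 2 is not shown to be unbound.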
